A study of Mus musculus with 26 samples.

Results

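The genes that copy nuclear DNA and those that mend single bases and mismatches were followed through cold exposure of brown adipose tissue (BAT). They were 46 genes chosen by symbol: the replicative helicase, clamp, single-strand binding and polymerase subunits, the enzymes of mismatch repair, and the enzymes of base excision repair. All 46 were among the 50686 genes of the count table and all 46 were kept among the 17286 genes tested. The RNA came from the BAT of 26 male C57BL/6J mice aged 12 to 16 weeks, all held for 2 weeks at thermoneutrality, which the labels give as 30 °C and the study's methods as 29 °C. Controls (WT in the labels) were littermates of mice labelled KO, in which a Cre recombinase driven by the Adiponectin promoter, active in fat cells, meets flox/flox alleles of Mllt4 (now Afdn), the gene of the junction protein Afadin. The 4 groups were 7 control and 7 KO-labelled mice at 30 °C, and 5 control and 7 KO-labelled mice after 6 h at 5 °C. The deletion is confined to cells that express the Cre, so the other cells of the tissue keep Afdn.

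Replication of nuclear DNA needs the ring-shaped MCM2-7 helicase to open the double helix, replication protein A (RPA) to coat the exposed strands, primase and polymerase alpha to start new strands, and polymerases delta and epsilon to extend them on the sliding clamp PCNA, which the RFC complex loads. Mismatch repair removes bases that were paired wrongly, and base excision repair begins when a DNA glycosylase cuts out a damaged base, after which an endonuclease nicks the abasic site and a polymerase and a ligase fill and seal the gap. Mature brown adipocytes rarely divide, while precursor, endothelial and immune cells of the tissue can, and cold activates the adipocytes through sympathetic nerves.

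Total counts per mouse ran from 12705969 to 25732258, and the values given are CPM, counts scaled to a common library total with TMM factors. Afdn itself was not lower in the libraries labelled KO at 30 °C, with 154 to 231 CPM against 151 to 214 CPM in controls. At 5 °C it ran from 53.3 to 65.3 CPM in KO-labelled and from 67.9 to 79.2 CPM in control mice. That difference, a log2 fold change of -0.33, did not pass after adjustment over all tested genes (adjusted p = 0.116, edgeR). The counts cover the whole gene and not only the deleted exons, which the sources used here do not give, so the groups are named by their labels. Ucp1, the uncoupling protein that defines brown fat, ran from 652 to 1292 CPM in controls at 30 °C and from 15340.2 to 16658 CPM at 5 °C. The summed CPM of 7 skeletal muscle markers ran from 0.815 to 7173, and 10 libraries, spread over the 4 groups, held over 1000 CPM of them. Without those 10 libraries the counts of members called after cold were 5 higher and 31 lower in controls, and 7 higher and 32 lower in KO-labelled mice. Over all genes that setting called 4873 higher and 5241 lower in controls, and 5012 higher and 5426 lower in KO-labelled mice.

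The first comparison asks what 6 h of cold did to these genes in control BAT. Most of them fell. Of the 46 genes, 31 were lower and 6 were higher at an adjusted p below 0.05 (edgeR's quasi-likelihood test, Benjamini-Hochberg over all 17286 genes), and 9 passed in neither direction. That is 67.4% lower and 13.0% higher, where 33.4% of all tested genes were lower and 31.6% were higher. The median log2 fold change was -0.92 over the 46 genes and -0.01 over all tested genes. The values of the 5 cold and the 7 thermoneutral controls did not overlap in 32 of the 46 genes (69.6%), against 46.4% of all tested genes. The same comparison in the KO-labelled mice, 7 against 7, gave 31 lower and 7 higher genes with a median of -0.84, beside 34.9% of all tested genes lower and 33.7% higher. There the groups did not overlap in 32 genes, against 40.4% of all tested genes. In what follows, a change by a value is a log2 fold change with a standard error (SE) derived from the F statistic of the edgeR fit. Levels are in CPM, and positions are those of GENCODE M21 on GRCm38 (mm10).

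The mean over the genes was lower in every cold mouse. The mean log2 CPM over the 46 genes was 2.99 ± 0.05 (SD, n = 7, range 2.89 to 3.06) in controls at 30 °C and 2.21 ± 0.03 (SD, n = 5, range 2.19 to 2.26) after cold. In KO-labelled mice it was 2.98 ± 0.08 (SD, n = 7, range 2.87 to 3.07) at 30 °C and 2.29 ± 0.05 (SD, n = 7, range 2.20 to 2.35) after cold. No cold mouse reached the lowest thermoneutral mouse on this measure. A total of 30 genes fell and 6 rose in both genotypes, and 7 passed the threshold in neither. The remaining 3 were called in a single genotype: Parp2 fell in controls, Fen1 fell in KO-labelled mice, and Pcna rose in KO-labelled mice. Over all tested genes, 33.4% were lower in controls and 34.9% in KO-labelled mice, and 31.6% and 33.7% were higher. How many of all tested genes were called alike in both genotypes was not counted, so the agreement of the members has no background here. With library size alone or upper-quartile factors, Parp2 was called lower in both genotypes and Pcna in neither. Per kilobase of exon, Parp1 stood highest at 30 °C with 17.6 CPM per kb in controls and Exo1 lowest with 0.0496 CPM per kb, around a median level of 1.89 CPM per kb. After cold Pcna stood highest, with 10.1 CPM per kb in controls and 11.2 CPM per kb in KO-labelled mice. The spread between mice of a group was small for most members, with a median coefficient of variation from 11.1% to 16.8% in the 4 groups.

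**Figure D1:**
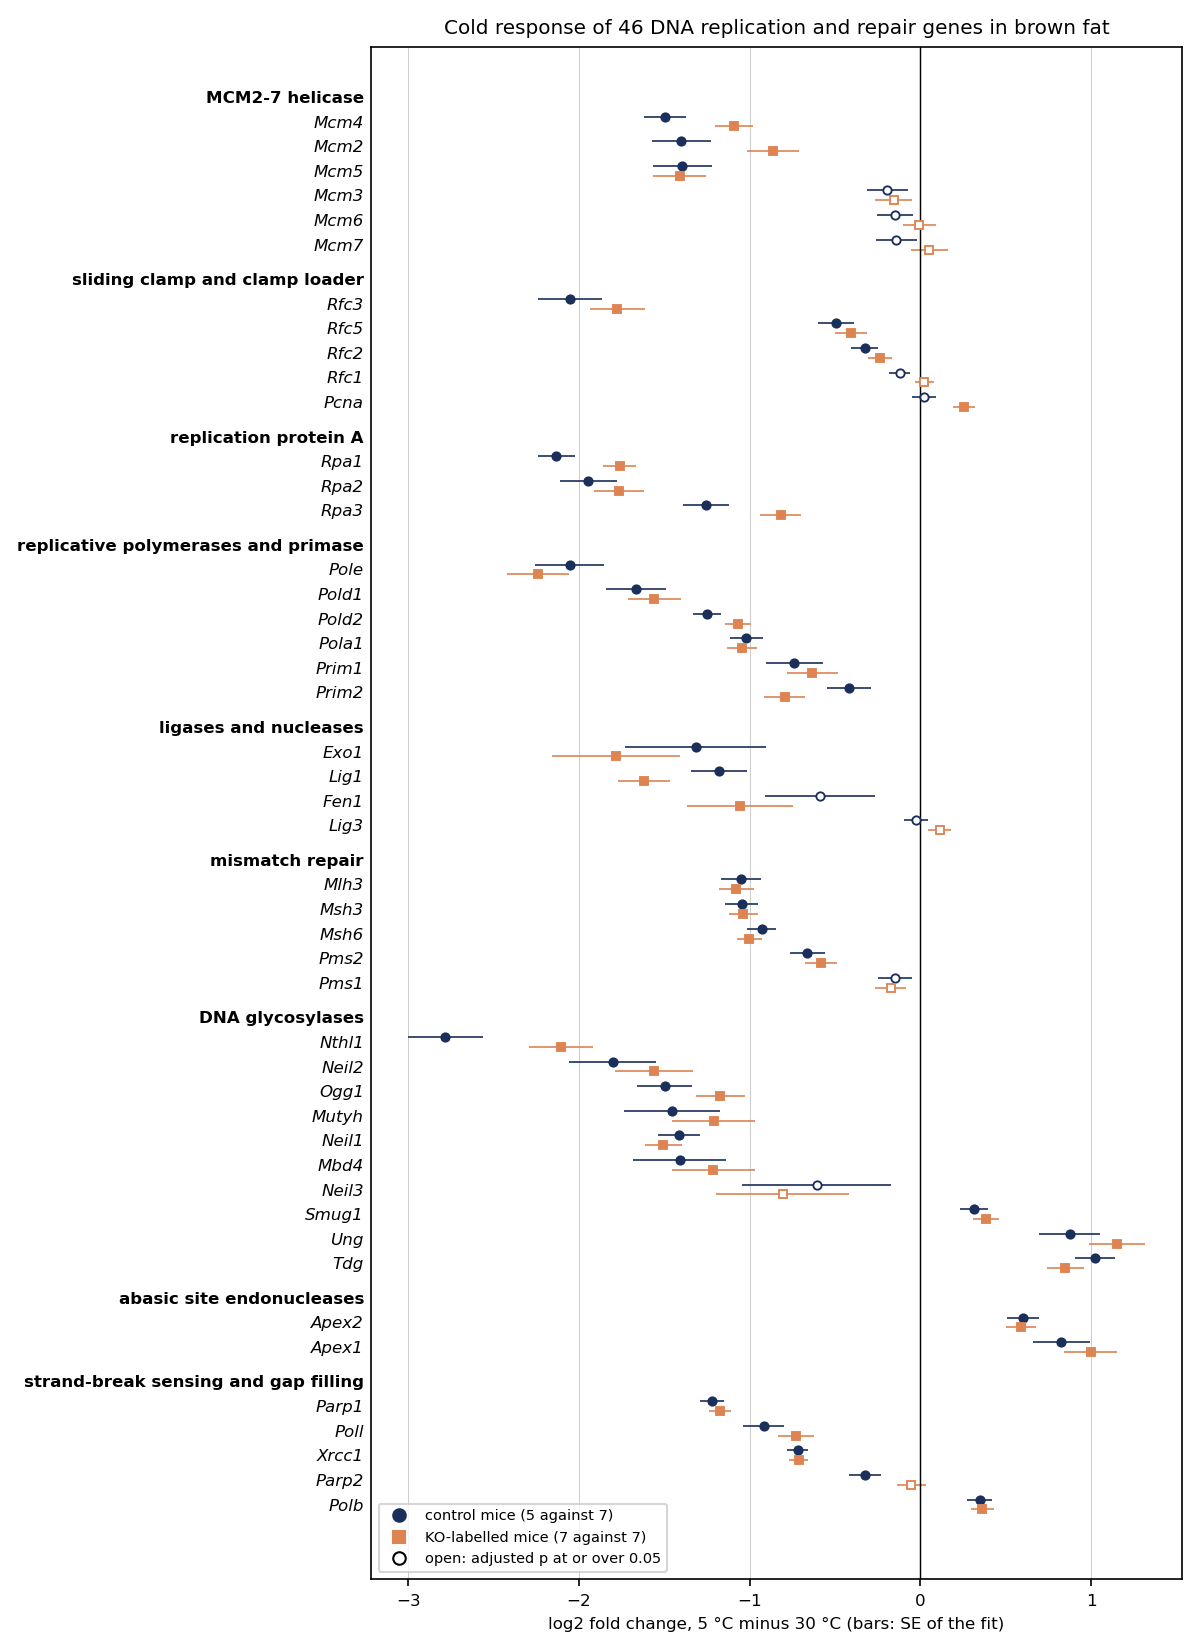
Log2 fold change (x axis, 5 °C minus 30 °C) of each of the 46 genes, grouped by role and ordered within a role by its value in controls. Circles are control mice (5 against 7), squares KO-labelled mice (7 against 7), bars the standard error of the edgeR fit, and open symbols an adjusted p at or over 0.05. Genes to the left of 0 fell with cold. The roles of RPA, of the replicative polymerases and primase and of mismatch repair lie wholly to the left in both genotypes. The helicase and the ligases and nucleases do so in controls, with 1 gene of each to the right in KO-labelled mice. The clamp and its loader lie on both sides. Ung, Tdg, Smug1, Apex1, Apex2 and Polb lie to the right in both genotypes.

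Of the 6 subunits of the MCM2-7 helicase, which work as a single ring, 3 fell after cold (50%) and 3 did not pass the test. Beside them, 33.4% of all tested genes fell in controls and 34.9% in KO-labelled mice. Among the subunits, Mcm4 (chr16:15623897-15637400) fell the most in controls. Its lowest, median and highest levels were 9.68, 12.4 and 13.8 CPM in controls at 30 °C, and the 5 cold controls had 4.45, 3.90, 5.36, 3.38 and 4.03 CPM. The log2 fold change was -1.50 (SE 0.13), adjusted p = 6.33e-11 by edgeR. In KO-labelled mice the levels were 9.54, 10.5 and 12.8 CPM at 30 °C and 3.94, 5.17 and 6.35 CPM after cold, a log2 fold change of -1.09 (SE 0.11). Cold and thermoneutral mice did not overlap in either genotype. Mcm2 fell from 4.29 ± 0.583 CPM (SD, n = 7) at 30 °C to 1.64 ± 0.337 CPM (SD, n = 5) after cold in controls, and Mcm5 from 4.26 ± 0.923 to 1.62 ± 0.204 CPM. Their log2 fold changes were -1.40 (SE 0.17) and -1.39 (SE 0.17) in controls, and -0.86 (SE 0.15) and -1.41 (SE 0.15) in KO-labelled mice. Mcm2 overlapped between the temperatures in KO-labelled mice through a single cold mouse at 3.39 CPM.

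The other three subunits did not pass the test in either genotype. Mcm3 ran from 5.23 to 6.87 CPM in controls at 30 °C and from 4.44 to 6.06 CPM after cold, Mcm6 from 6.16 to 9.43 and from 6.24 to 7.59 CPM, and Mcm7 from 9.73 to 13.3 and from 8.57 to 13.0 CPM. The temperatures overlapped for all 3 genes in both genotypes. Their log2 fold changes were -0.19 (SE 0.12), -0.15 (SE 0.11) and -0.14 (SE 0.12) in controls and -0.16 (SE 0.11), -0.01 (SE 0.10) and 0.05 (SE 0.11) in KO-labelled mice. The 95% intervals of these 6 values lay between -0.43 and 0.27, above the fitted values of Mcm2, Mcm4 and Mcm5. Scaling by library size alone lowered the median of all genes to -0.14 in controls and -0.34 in KO-labelled mice, and Mcm3 was then called lower in both genotypes (-0.31 and -0.49) and Mcm6 in KO-labelled mice (-0.32). Upper-quartile factors called Mcm3 lower in both genotypes (-0.30 and -0.32) and Mcm6 in controls (-0.25).

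**Figure D2:**
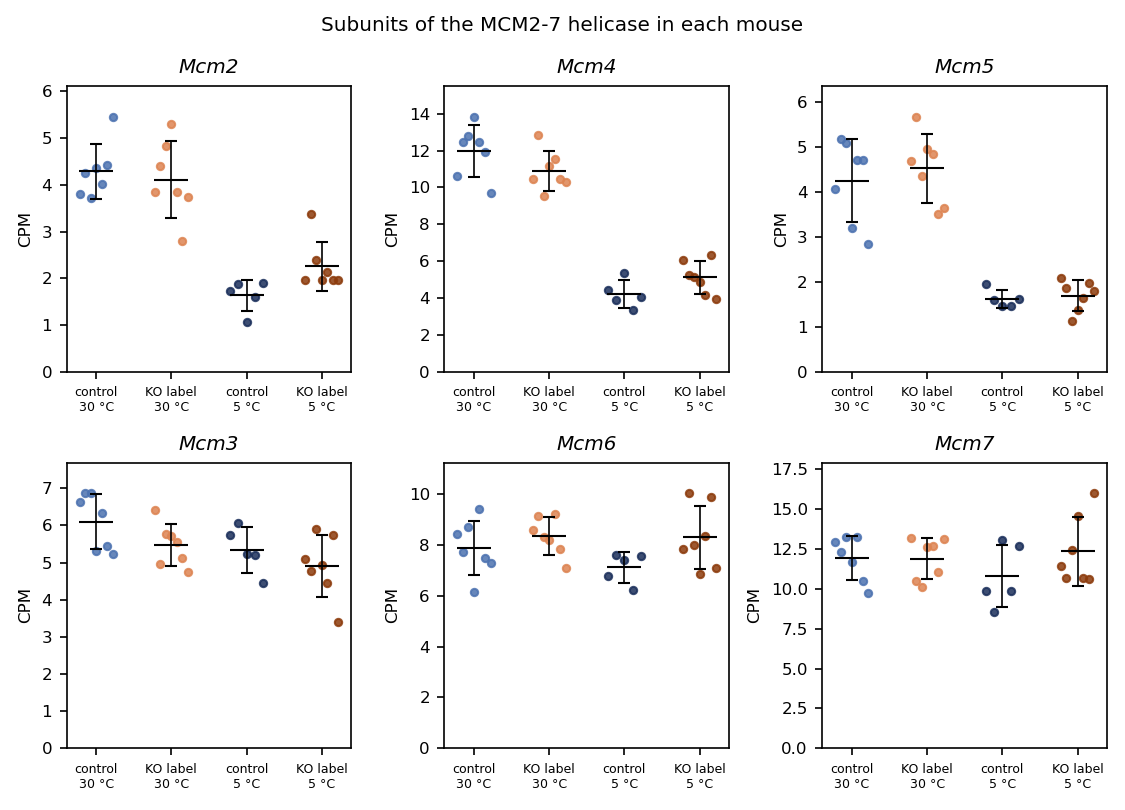
Level of each MCM2-7 subunit (y axis, CPM from 0) in every mouse of the 4 groups. Points are mice, and the horizontal marks and bars give the mean and SD. In the upper row Mcm2, Mcm4 and Mcm5 sit lower after cold, while in the lower row Mcm3, Mcm6 and Mcm7 overlap between the temperatures.

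The promoters of the MCM genes are shown because genes of this family share binding sites of the E2F factors, which switch on replication genes in dividing cells. RefSeq entries for GRCm38.p6, 250 bases before the start of transcription and 50 bases from it, were found for 37 of the 46 genes. An E2F motif in any of 4 forms (TTTGGCGC, TTTGCCGC, TTTCGCGC or TTTCCCGC, on both strands, where a form and the reverse of another can overlap in the same letters) was present in 11 of the 37 genes, or 29.7%, and in 2.60% of the 27025 genes with an entry. Of those 11 genes, 8 fell in cold controls (Lig1, Mcm5, Msh3, Msh6, Nthl1, Pola1, Pold1 and Rfc3) and 3 did not pass the test (Mcm3, Mcm6 and Mcm7). Of the 26 genes without the motif, 16 fell. Over all 46 genes 67.4% fell in controls, beside 33.4% of all tested genes. Whether the motif goes with the fall was not tested. The CCAAT box (CCAAT), the E-box (CACGTG) and the CHR element (TTTGAA) were searched as well. They were present in 26, 9 and 3 of the 37 genes, or 70.3%, 24.3% and 8.11%. Among all genes with an entry the shares were 41.1%, 8.09% and 20.2%. Of the members that held them, 17, 4 and 2 fell in cold controls. The cyclic AMP response element TGACGTCA, the site of CREB, was present in Mcm5 and Tdg and in 2.03% of all genes with an entry. The promoters of a pair that fell and a pair that did not are given 5′ to 3′ on the strand of the gene, with E2F and CREB motifs in capitals. Mcm2 held neither the E2F nor the CREB motif in this window and Mcm5 held both. In Mcm6 the E2F motifs lay 110, 106 and 47 bases before the start, and in Mcm3 they began at bases 20 and 39 counted from the start.
Mcm2, chr6:88898731-88899030, minus strand: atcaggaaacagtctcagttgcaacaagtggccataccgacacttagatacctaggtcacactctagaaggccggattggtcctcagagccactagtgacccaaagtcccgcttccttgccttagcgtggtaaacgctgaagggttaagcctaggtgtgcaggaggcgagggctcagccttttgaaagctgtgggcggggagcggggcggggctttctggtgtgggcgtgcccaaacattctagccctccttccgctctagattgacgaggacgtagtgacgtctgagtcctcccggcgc
Mcm5, chr8:75109259-75109558, plus strand: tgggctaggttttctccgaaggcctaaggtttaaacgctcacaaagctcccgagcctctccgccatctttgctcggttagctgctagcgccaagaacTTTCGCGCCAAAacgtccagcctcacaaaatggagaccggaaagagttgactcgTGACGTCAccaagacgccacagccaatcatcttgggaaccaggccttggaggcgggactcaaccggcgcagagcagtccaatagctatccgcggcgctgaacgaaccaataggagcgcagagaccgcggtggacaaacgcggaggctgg
Mcm3, chr1:20820263-20820562, minus strand: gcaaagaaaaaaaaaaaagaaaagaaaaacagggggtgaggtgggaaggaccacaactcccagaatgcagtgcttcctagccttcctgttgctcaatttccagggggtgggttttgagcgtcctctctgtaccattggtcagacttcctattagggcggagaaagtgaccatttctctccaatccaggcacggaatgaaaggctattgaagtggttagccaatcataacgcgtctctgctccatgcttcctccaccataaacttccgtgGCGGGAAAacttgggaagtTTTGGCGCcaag
Mcm6, chr1:128359656-128359955, minus strand: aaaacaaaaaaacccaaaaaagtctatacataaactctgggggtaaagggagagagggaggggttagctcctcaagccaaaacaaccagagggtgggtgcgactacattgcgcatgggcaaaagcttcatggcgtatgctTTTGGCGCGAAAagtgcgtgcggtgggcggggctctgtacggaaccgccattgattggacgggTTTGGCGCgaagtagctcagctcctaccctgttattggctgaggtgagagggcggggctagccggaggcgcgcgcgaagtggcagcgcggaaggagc

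RPA is the complex that holds single-stranded DNA open for both replication and repair. All 3 of its subunits fell in both genotypes, beside 33.4% of all tested genes in controls and 34.9% in KO-labelled mice. Rpa1 (chr11:75298166-75348324), the large subunit that grips the DNA, was the most abundant of them per kilobase of exon, with 12.1 CPM per kb in controls at 30 °C. Its lowest, median and highest levels there were 51.6, 68.6 and 72.8 CPM, and the 5 cold controls had 18.6, 13.4, 15.8, 13.5 and 15.3 CPM. The log2 fold change was -2.13 (SE 0.11), which left 22.8% of the thermoneutral level (adjusted p = 4.99e-15, edgeR). In KO-labelled mice Rpa1 went from 54.6, 60.3 and 71.2 CPM to 13.2, 17.1 and 20.6 CPM, a log2 fold change of -1.76 (SE 0.10). The groups lay far apart, with the lowest thermoneutral mouse above the highest cold mouse by more than the spread within any group. Rpa2 changed by -1.95 (SE 0.17) in controls and -1.76 (SE 0.15) in KO-labelled mice, and Rpa3, the smallest subunit, by -1.25 (SE 0.14) and -0.82 (SE 0.12), again without overlap.

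The sliding clamp and its loader did not move together. Rfc3 (chr5:151642756-151651242), a small subunit of the loader, had 3.35, 4.06 and 4.53 CPM (lowest, median and highest) in controls at 30 °C and 1.19, 0.975, 0.987, 0.987 and 0.749 CPM in the 5 cold controls. Its log2 fold change was -2.05 (SE 0.19) in controls (adjusted p = 2.84e-10, edgeR) and -1.77 (SE 0.16) in KO-labelled mice, and the temperatures did not overlap. Rfc5 and Rfc2, further small subunits, fell less, with log2 fold changes of -0.49 (SE 0.10) and -0.33 (SE 0.08) in controls. Rfc1, the large subunit, was at 58.7 ± 4.84 CPM (SD, n = 7) and 53.9 ± 2.51 CPM (SD, n = 5), which is a change of -0.12 (SE 0.06) that did not pass in the fit reported, while it did in 6 other settings: library size alone (-0.24), upper-quartile factors (-0.23), at least 10 counts in every mouse (-0.16), only the groups compared (-0.17), without control mouse 7 at 30 °C (-0.18) and without the 10 libraries with over 1000 CPM of muscle markers (-0.20). Pcna, the clamp itself, ran from 21.2 to 26.9 CPM at 30 °C and from 22.8 to 25.8 CPM after cold in controls, with overlapping groups and a log2 fold change of 0.02 (SE 0.07). In KO-labelled mice Pcna was higher after cold by 0.25 (SE 0.06), adjusted p = 0.00113 by edgeR, but the groups overlapped, and with library size alone the value was -0.06.

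All 6 subunits of replicative polymerases and primase fell in both genotypes, beside 33.4% of all tested genes in controls and 34.9% in KO-labelled mice. Pole (chr5:110286306-110337474), the catalytic subunit of polymerase epsilon, which copies the leading strand, had 3.08, 3.74 and 4.40 CPM (lowest, median and highest) in controls at 30 °C and 0.593, 1.05, 0.730, 0.987 and 1.27 CPM in the 5 cold controls. The log2 fold change was -2.05 (SE 0.20) (adjusted p = 1.16e-09, edgeR). In KO-labelled mice Pole went from 2.27, 3.75 and 4.96 CPM to 0.549, 0.775 and 1.05 CPM, a log2 fold change of -2.24 (SE 0.18). The cold mice lay below the thermoneutral mice without exception. Pold1 and Pold2, the catalytic and accessory subunits of polymerase delta, changed by -1.67 (SE 0.18) and -1.25 (SE 0.08) in controls, and Pola1, the catalytic subunit of polymerase alpha, by -1.02 (SE 0.10). The primase subunits moved least in controls: Prim1 changed by -0.74 (SE 0.17) and Prim2 by -0.42 (SE 0.13) in controls, where both overlapped between the temperatures, and by -0.63 (SE 0.15) and -0.79 (SE 0.12) in KO-labelled mice, where neither did. Without the 10 libraries with over 1000 CPM of muscle markers, Prim2 in controls was at -0.32 and no longer passed (adjusted p = 0.114, edgeR).

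**Figure D3:**
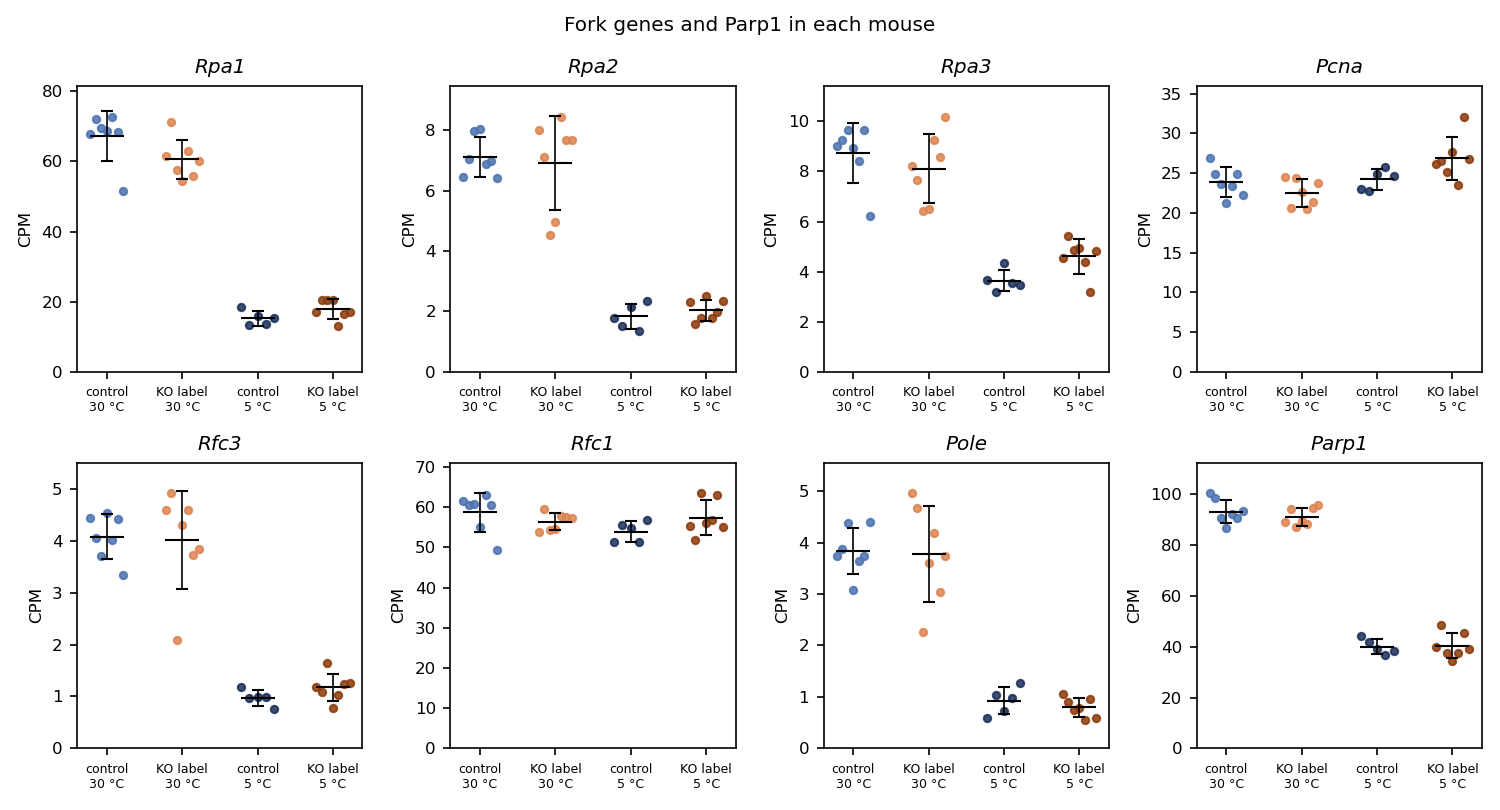
Level (y axis, CPM from 0) of the RPA subunits, the clamp Pcna, the loader subunits Rfc3 and Rfc1, the polymerase subunit Pole and the strand-break sensor Parp1 in every mouse. Points are mice, and the horizontal marks and bars give the mean and SD. Pcna and Rfc1 overlap between 30 °C and 5 °C, while in the other 6 genes the cold mice lie below the thermoneutral mice of both genotypes.

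Among the enzymes that finish new strands, Lig1, the ligase of replication, fell from 4.41 ± 0.528 CPM (SD, n = 7) at 30 °C to 1.94 ± 0.247 CPM (SD, n = 5) after cold in controls. Its log2 fold change was -1.18 (SE 0.16) in controls and -1.62 (SE 0.15) in KO-labelled mice, without overlap. Exo1 (chr1:175880581-175913489), an exonuclease of mismatch repair, had the largest called fall of its class, but on low counts of 1 to 12 per control mouse. Its levels were 0.275, 0.387 and 0.665 CPM (lowest, median and highest) at 30 °C and 0.237, 0.139, 0.300, 0.0520 and 0.0576 CPM in the 5 cold controls. The log2 fold change was -1.32 (SE 0.41) (adjusted p = 0.00678, edgeR), and the groups overlapped. Lig3, which seals single-strand breaks in base excision repair and in mitochondria, was at 17.0 ± 1.53 and 16.7 ± 0.298 CPM, a log2 fold change of -0.03 (SE 0.07) that did not pass. Fen1, the flap endonuclease, had at most 12 counts in any mouse. It shares 1909 of its 2422 exon bases with the opposite-strand gene Gm10143, and the strand setting of the counting is not given in the sources used here, so its level is uncertain. Fen1 changed by -0.59 (SE 0.32) in controls, which did not pass, and by -1.06 (SE 0.31) in KO-labelled mice (adjusted p = 0.00389, edgeR). Lig3 likewise shares 1826 of 7284 exon bases with the opposite-strand gene Rffl.

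Of the 5 mismatch repair genes, 4 fell in both genotypes (80%), beside 33.4% of all tested genes in controls and 34.9% in KO-labelled mice. Mlh3 and Msh3 fell to a like degree. Mlh3 (chr12:85234520-85270599), which pairs with other MutL proteins, had 17.7, 22.9 and 25.0 CPM (lowest, median and highest) in controls at 30 °C and 13.9, 9.61, 10.1, 10.3 and 10.1 CPM in the 5 cold controls, a change of -1.05 (SE 0.12) (adjusted p = 9.01e-09, edgeR). Msh3, which recognises small loops, changed by -1.05 (SE 0.10), and Msh6, which recognises single mispairs, by -0.93 (SE 0.08). Pms2, the main MutL endonuclease subunit, changed by -0.66 (SE 0.10). None of these 4 overlapped between the temperatures in either genotype. Pms1 was at 6.90 ± 0.923 CPM (SD, n = 7) and 6.21 ± 0.566 CPM (SD, n = 5), a change of -0.15 (SE 0.10) that did not pass. It did pass in controls with upper-quartile factors (-0.26) and without control mouse 7 at 30 °C (-0.23). In KO-labelled mice, Pms1 passed as lower with library size alone (-0.50), upper-quartile factors (-0.33), at least 10 counts in every mouse (-0.24) and without KO-labelled mouse 10 at 30 °C (-0.22).

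Of the 10 DNA glycosylases, 6 fell (60.0%) and 3 rose (30.0%) in controls, the latter near the 31.6% of all tested genes that rose. Ung and Smug1, which remove uracil, and Tdg, which removes mismatched thymine, rose. Ogg1, Mutyh, Nthl1, Neil1 and Neil2, which act on oxidised bases or on adenine opposite them, fell. Mbd4, which like Tdg acts on mismatched thymine, fell too. Nthl1 (chr17:24632680-24638837) had the largest fall of all 46 genes in controls. Its lowest, median and highest levels were 2.64, 4.42 and 4.87 CPM in controls at 30 °C, and the 5 cold controls had 0.415, 0.488, 0.515, 0.987 and 0.518 CPM. The log2 fold change was -2.78 (SE 0.22), which left 14.5% of the level at 30 °C (adjusted p = 1.59e-11, edgeR). In KO-labelled mice it went from 2.60, 3.45 and 4.23 CPM to 0.524, 0.775 and 1.01 CPM, a log2 fold change of -2.10 (SE 0.19). The temperatures did not overlap in either genotype. Neil2 changed by -1.80 (SE 0.26), Ogg1 by -1.50 (SE 0.16), Mutyh by -1.45 (SE 0.28), Neil1 by -1.41 (SE 0.12) and Mbd4 by -1.41 (SE 0.27) in controls. Of these 5, Mutyh overlapped between the temperatures in controls and Mbd4 in KO-labelled mice. Neil3, at 0.560 ± 0.308 CPM in controls at 30 °C, did not pass in either genotype, but in KO-labelled mice it passed as lower with library size alone (-1.13), with upper-quartile factors (-0.96), without the 10 libraries with over 1000 CPM of muscle markers (-1.36), and without KO-labelled mouse 13 (-0.96) or 14 (-0.93) at 30 °C or 25 (-0.97) after cold.

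Tdg (chr10:82629828-82650799), which removes thymine paired with guanine and takes part in active demethylation of DNA, rose the most in controls. It had 4.47, 5.09 and 5.48 CPM (lowest, median and highest) in controls at 30 °C and 11.2, 11.3, 10.7, 9.77 and 8.58 CPM in the 5 cold controls. The change was 1.03 (SE 0.12) (adjusted p = 1.69e-08, edgeR), and 0.85 (SE 0.11) in KO-labelled mice. Ung, the main uracil glycosylase, changed by 0.88 (SE 0.18) and 1.15 (SE 0.17), and neither Tdg nor Ung overlapped between the temperatures. Smug1, a further uracil glycosylase, rose less, by 0.32 (SE 0.08) and 0.39 (SE 0.08) without overlap, and did not pass in either genotype with library size alone, nor in controls without the 10 libraries with over 1000 CPM of muscle markers (0.24). The promoters of the glycosylase that fell most and of the one that rose most are given with the same marking, in which the capitals are an E2F motif in Nthl1, beginning 132 bases before the start, and a CREB motif in Tdg, beginning 135 bases before it.
Nthl1, chr17:24632432-24632731, plus strand: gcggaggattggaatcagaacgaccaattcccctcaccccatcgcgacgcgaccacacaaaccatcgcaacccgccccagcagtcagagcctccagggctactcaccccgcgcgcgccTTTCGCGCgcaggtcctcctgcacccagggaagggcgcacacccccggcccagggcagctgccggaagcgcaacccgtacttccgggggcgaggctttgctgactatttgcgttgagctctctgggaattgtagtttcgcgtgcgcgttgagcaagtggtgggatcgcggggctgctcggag
Tdg, chr10:82629588-82629887, plus strand: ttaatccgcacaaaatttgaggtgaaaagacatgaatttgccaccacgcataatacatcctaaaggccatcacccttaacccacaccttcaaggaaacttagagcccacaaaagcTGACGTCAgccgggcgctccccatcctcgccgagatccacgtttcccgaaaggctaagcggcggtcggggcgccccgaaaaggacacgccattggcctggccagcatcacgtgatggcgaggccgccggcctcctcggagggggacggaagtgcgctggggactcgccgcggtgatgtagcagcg

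Both endonucleases that nick abasic sites rose in both genotypes, beside 31.6% of all tested genes in controls and 33.7% in KO-labelled mice. Apex1 (chr14:50924968-50927139), the main one, had 2.78, 3.26 and 4.77 CPM (lowest, median and highest) in controls at 30 °C and 4.92, 7.04, 5.75, 6.65 and 7.55 CPM in the 5 cold controls, so that the groups did not overlap. It changed by 0.83 (SE 0.17) in controls (adjusted p = 1.03e-04, edgeR) and 1.00 (SE 0.15) in KO-labelled mice. Apex1 shares 877 of its 1422 exon bases with Pip4p1 on the opposite strand, a gene at higher CPM that itself rose by 0.65 (SE 0.07) in controls. If the counting ignored strand, reads of the shared bases cannot be assigned to a single gene of the pair. Whether such reads were then counted or left out is not given in the sources used here. Apex2 rose by 0.60 (SE 0.09) and 0.59 (SE 0.09), also without overlap. Of the genes that sense strand breaks and fill gaps, Parp1 (chr1:180568924-180601254), which marks breaks with poly(ADP-ribose), had the highest level. It went from 86.9, 92.3 and 100.4 CPM (lowest, median and highest) in controls to 44.3, 41.9, 39.2, 36.6 and 38.1 CPM in the 5 cold controls, a change of -1.22 (SE 0.07) (adjusted p = 3.87e-14, edgeR). In KO-labelled mice it went from 87.1, 89.4 and 95.8 CPM to 34.6, 39.0 and 48.5 CPM, a log2 fold change of -1.17 (SE 0.06). Every cold mouse lay below every thermoneutral mouse of both genotypes.

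The partners of Parp1 did not all follow it. Xrcc1, the scaffold that gathers repair enzymes at breaks, changed by -0.72 (SE 0.06) and -0.71 (SE 0.06), and Poll, a gap-filling polymerase, by -0.92 (SE 0.12) and -0.73 (SE 0.11), all without overlap. Parp2 fell in controls, changing by -0.32 (SE 0.09) (adjusted p = 0.00352, edgeR), and its value of -0.05 (SE 0.08) in KO-labelled mice did not pass, while with library size alone it was -0.38 and with upper-quartile factors -0.21, and both passed. Polb (chr8:22628126-22653435), the main gap-filling polymerase of base excision repair, rose. It had 20.4, 23.4 and 25.4 CPM (lowest, median and highest) in controls at 30 °C and 32.1, 31.6, 29.1, 29.1 and 25.1 CPM in the 5 cold controls, with 1 of the 5 inside the thermoneutral range. Its log2 fold change was 0.35 (SE 0.07) (adjusted p = 1.40e-04, edgeR) and 0.36 (SE 0.07) in KO-labelled mice, and it did not pass in either genotype with library size alone. Over the 17 genes of the glycosylase, abasic site and strand-break roles, 10 fell (58.8%) and 6 rose (35.3%) in controls, beside 33.4% and 31.6% of all tested genes, so the share that rose was near the background.

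**Figure D4:**
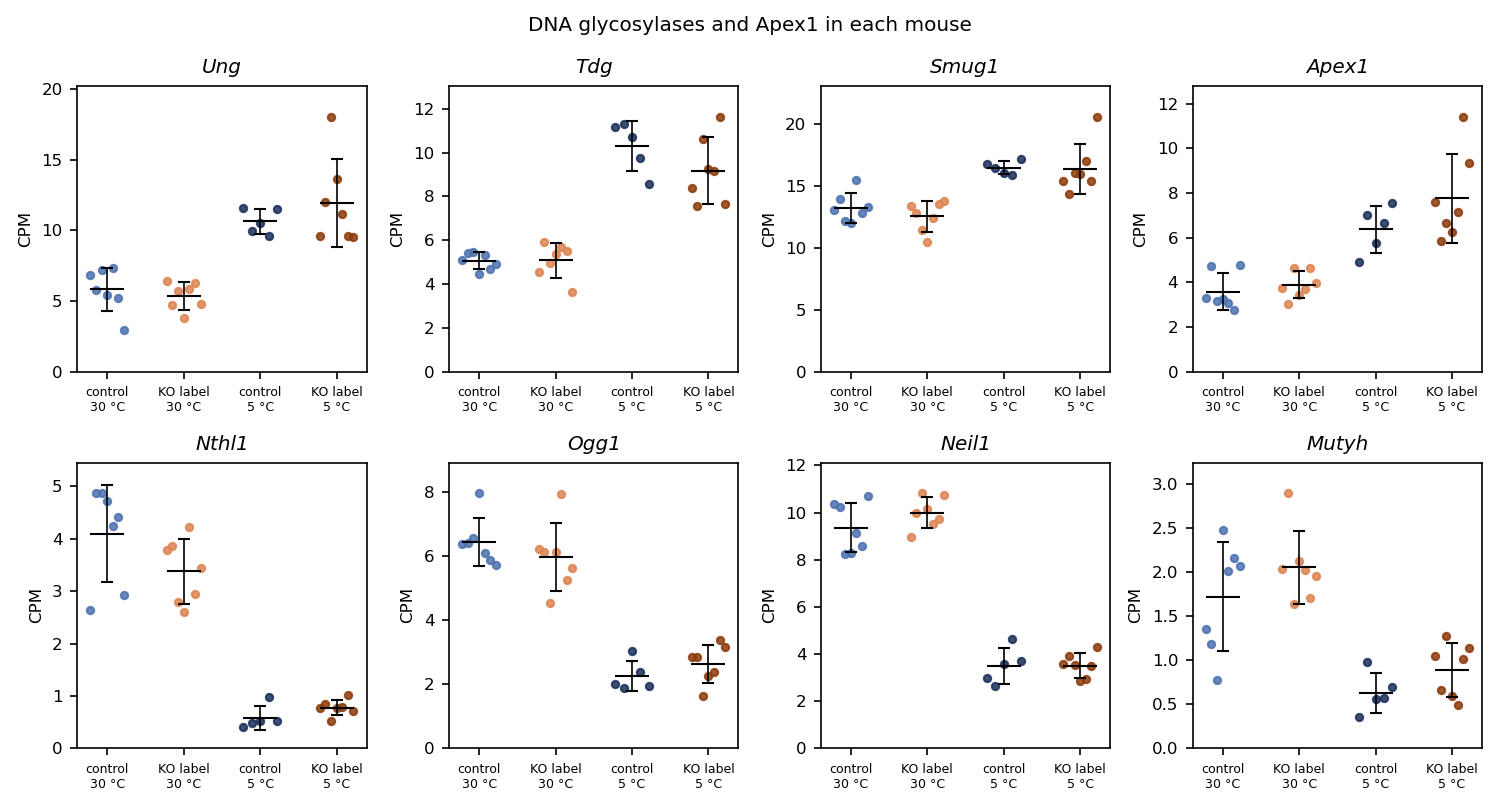
Level (y axis, CPM from 0) of DNA glycosylases and of Apex1 in every mouse. Points are mice, and the horizontal marks and bars give the mean and SD. Ung, Tdg, Smug1 and Apex1 sit higher after cold in both genotypes, and Nthl1, Ogg1, Neil1 and Mutyh sit lower.

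In bulk tissue, fewer cells of a type and less RNA per cell cannot be told apart, and CPM is a share of all RNA counted. Markers of several cell types moved with the cold. The summed level of 9 T and B lymphocyte markers ran from 5.38 to 12.5 CPM in controls at 30 °C and from 1.78 to 3.59 CPM after cold (0 higher and 4 lower of 8 tested), and in KO-labelled mice from 5.37 to 11.5 and from 2.38 to 25.2 CPM. The cold KO-labelled mouse with the highest lymphocyte sum was also the one with the highest Mcm2 and Mbd4. Brown adipocyte markers (10 genes) ran from 7722 to 9149 CPM in controls at 30 °C and from 28551 to 31207 CPM after cold (5 higher and 2 lower of 10 tested). That sum includes Ucp1, with a mean of 985 CPM at 30 °C and 16005 CPM after cold, and the median log2 fold change of the 10 markers was 0.17. Endothelial markers (8 genes) ran from 582 to 707 and from 894 to 1027 CPM (5 higher and 3 lower of 8 tested). Neutrophil markers (7 genes) ran from 3.29 to 10.8 and from 6.87 to 14.0 CPM (4 higher and 0 lower of 6 tested, with Ly6g at 0 in every mouse at 30 °C), and Schwann cell markers (5 genes) from 85.3 to 120.2 and from 51.0 to 69.0 CPM (0 higher and 2 lower of 5 tested). Fibroblast and precursor markers (8 genes) ran from 1137 to 2855 and from 1121 to 1626 CPM, macrophage markers (8 genes) from 218 to 316 and from 254 to 325 CPM, and red blood cell markers (5 genes) from 233 to 1120.0 and from 417 to 684 CPM. The part of these cells in the changes was not tested. Genes of mitosis, a list of 20, gave 5 lower (25.0%, below the 33.4% of all tested genes) and 0 higher in controls, with a median log2 fold change of -0.29. Among those called at 1 CPM or more, Aurka and Cenpe, kinase and motor of the spindle, were at -0.92 (SE 0.36) and -0.78 (SE 0.30), and at -0.31 (SE 0.32) and -0.42 (SE 0.27) in KO-labelled mice, where neither passed.

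Other genes of the same pathways, taken from lists outside the 46, were counted the same way, and their shares stand beside 33.4% of all tested genes lower and 31.6% higher. Of the origin licensing and firing genes, 16 of 26 tested fell (61.5%) and 4 rose (15.4%) in controls, with a median log2 fold change of -0.63. Gmnn, which keeps origins from being licensed again, changed by -2.67 (SE 0.19) and Gins2, a helicase partner, by -1.87 (SE 0.26), while Donson and Orc3 rose by 0.44 (SE 0.11) and 0.38 (SE 0.07). Of the enzymes that supply deoxynucleotides, 9 of 13 fell (69.2%) and 2 rose (15.4%). Dut, which destroys dUTP before it can enter DNA, changed by -1.57 (SE 0.15). Tyms, thymidylate synthase, and Rrm1, a ribonucleotide reductase subunit, rose by 1.16 (SE 0.14) and 0.39 (SE 0.11). Of the remaining polymerase and clamp loader subunits, 7 of 15 fell (46.7%), with Pold4 at -2.10 (SE 0.18) and Rnaseh2a at -1.15 (SE 0.11), and 2 rose (13.3%), Pole4 by 0.84 (SE 0.09) and Pole3 by 0.26 (SE 0.07). Of further base excision and single-strand break genes, 9 of 13 fell (69.2%), with Aplf at -1.74 (SE 0.16) and Nudt1 at -1.45 (SE 0.14), and 2 rose (15.4%), Parg by 0.83 (SE 0.06) and Alkbh3 by 0.52 (SE 0.11).

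**Figure D5:**
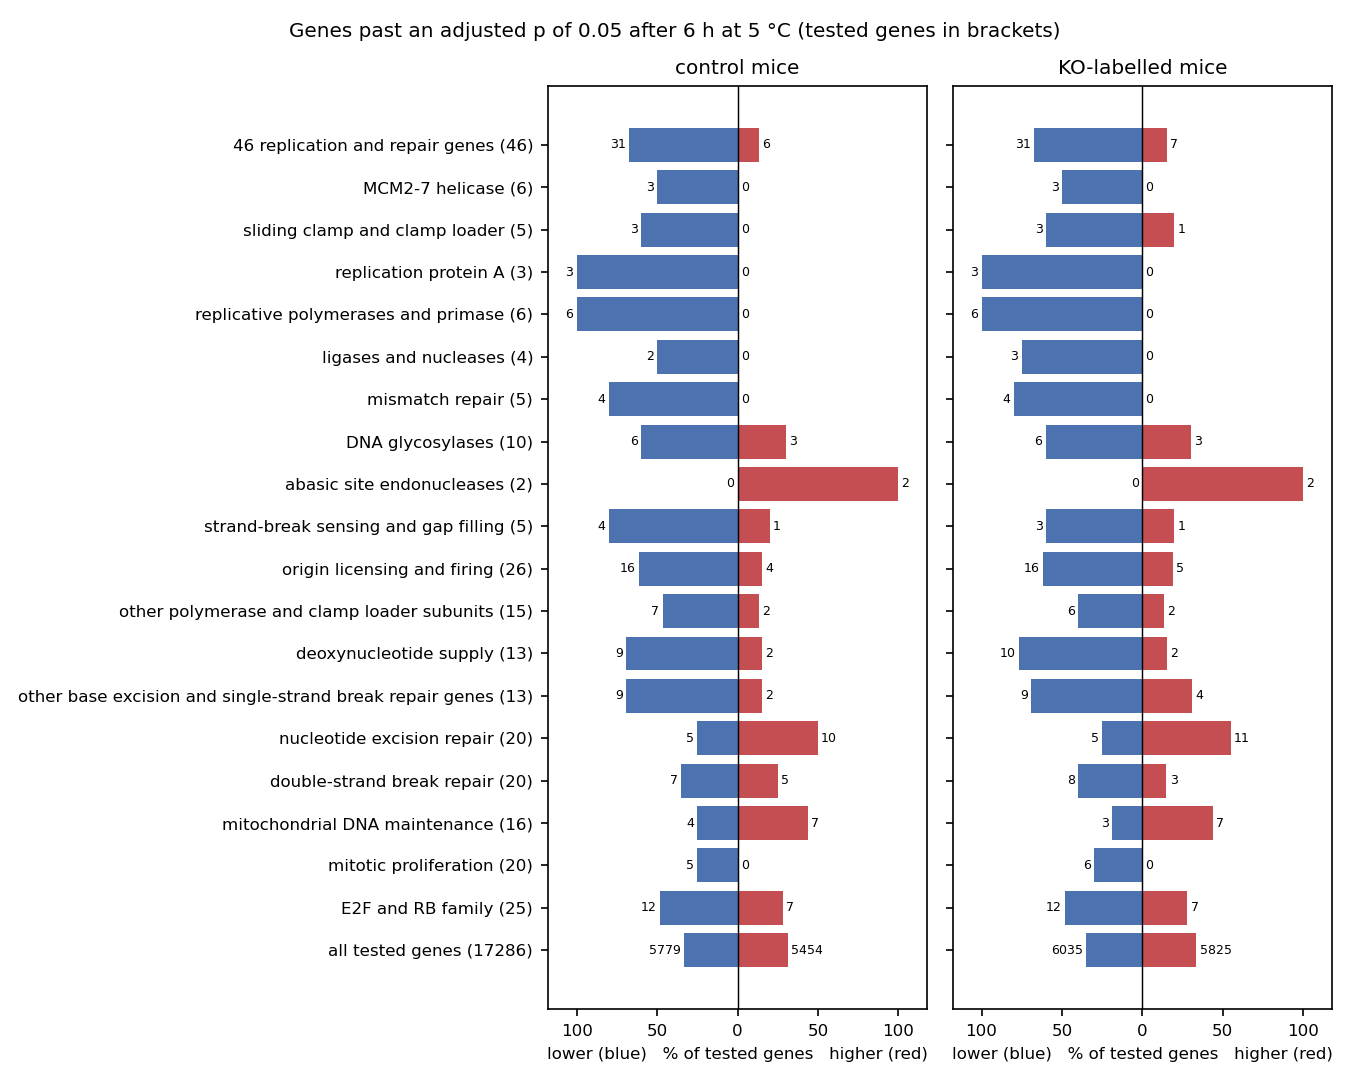
Share of the tested genes of each list (x axis, percent) that were lower (blue, to the left) or higher (red, to the right) after cold at an adjusted p below 0.05, in control and KO-labelled mice, with the number of genes beside each bar. The first bar is all 46 genes, then come the roles, the lists outside the 46 and, last, all tested genes. The roles of RPA and of the replicative polymerases and primase reach 100% lower in both genotypes. Those of the helicase, of mismatch repair and of the ligases and nucleases show blue alone, below 100%. The list of other polymerase and clamp loader subunits holds both colours, and nucleotide excision repair is more red than blue.

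The genotype label was then compared within each temperature. At 30 °C, 0 of the 46 genes passed by edgeR and 0 by DESeq2, beside 0.081% of all tested genes called by edgeR, and 0 had an unadjusted p below 0.05, beside 7.65% of all tested genes. The log2 fold changes, KO-labelled minus control, ran from -0.28 (Nthl1) to 0.30 (Exo1), and the 95% interval lay within 1 log2 unit of 0 for all 46 genes and within 0.5 for 39. After cold, 0 of the 46 genes passed by edgeR and 0 by DESeq2, beside 0.139% of all tested genes by edgeR. An unadjusted p below 0.05 was reached by 7 genes (15.2%), beside 13.4% of all tested genes, which is near the background. They were Mcm2, Mcm4, Mcm6, Pcna, Rpa1 and Rpa3, higher in KO-labelled mice, and Lig1, lower. Intervals lay within 1 log2 unit of 0 for 43 genes. The lowest adjusted p, 0.242 by edgeR, belonged to Mcm2, with 1.96, 1.97 and 3.39 CPM (lowest, median and highest) in KO-labelled mice against 1.72, 1.88, 1.07, 1.61 and 1.90 CPM in the 5 controls. Its log2 fold change was 0.47 (SE 0.18), and without the mouse at 3.39 CPM it was 0.34.

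Whether the cold response itself differed between the genotypes was tested as an interaction, KO-labelled minus control. Again 0 of the 46 genes passed by edgeR and 0 by DESeq2, beside 1.16% of all tested genes by edgeR. An unadjusted p below 0.05 was reached by 8 genes (17.4%), beside 16.2% of all tested genes: Mcm2, Mcm4, Pcna, Rpa1, Rpa3, Prim2, Nthl1 and Parp2. Rpa1, at 0.37 (SE 0.14), had an unadjusted p of 0.0130 and an adjusted p of 0.180 by edgeR. Nthl1, at 0.68 (SE 0.29), was the largest interaction value. The value was positive in 32 of the 46 genes, beside 56.7% of all tested genes, and the members' median turned from 0.10 to -0.0881 with library size alone. Prim2 was at -0.38 (SE 0.18). The interaction shares its cold and thermoneutral mice with the comparisons above and gives no separate evidence. After cold, summed red blood cell markers ran from 517 to 1497 CPM in KO-labelled and from 417 to 684 CPM in control mice (5 of 5 markers higher after cold in KO-labelled mice and 0 in controls), and macrophage markers from 274 to 385 and from 254 to 325 CPM. For the label after cold and for the interaction, 0 of the 5 red blood cell markers passed by edgeR. All 5 had an unadjusted p below 0.05 in each. The part of these cells was not tested. With library size alone as the scaling, the unadjusted counts were 3 at 30 °C, 1 after cold and 3 for the interaction. The clamp loader subunit Rfc4 (chr16:23113943-23127737) is not among the 46 and was chosen after its values were seen. It was higher in KO-labelled mice at 30 °C by 0.57 (SE 0.08), adjusted p = 9.82e-04, and after cold by 0.73 (SE 0.09), adjusted p = 1.22e-04 (edgeR). The label covers both the loss of Afdn and the Adiponectin-driven Cre transgene with the DNA around it. The part of each in the Rfc4 difference was not tested. With cold Rfc4 changed by -0.43 (SE 0.09) in controls and by -0.27 (SE 0.08) in KO-labelled mice, and passed in both.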

How the data were processed

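RNA-sequencing counts of BAT from 26 mice in 4 groups were used, with groups and replicate numbers taken from the sample labels. Total RNA was depleted of rRNA and made into libraries with a kit that keeps strand. Reads were aligned by the authors with STAR 2.5.2b (mm10), and raw counts per gene from featureCounts 1.5.2 on GENCODE M13 were deposited without normalization. The strand setting of the counting is not given in the sources used here. All 26 columns were used, and every pair of mice of a group differed by more than sampling noise.

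Genes were matched by identifier to GENCODE M21, which gave symbols to 50462 of 50686. Genes were kept with filterByExpr, counts were scaled with TMM factors, and a single model with a term for each group was fitted in R 4.3.3 with edgeR 4.0.16 (quasi-likelihood, legacy mode), the study's design. P-values were adjusted by Benjamini-Hochberg over the 17286 genes, with a threshold of 0.05. Total counts of 12705969 to 25732258 per mouse limit the precision for genes under 1 CPM. The SE is the size of the log2 fold change divided by the square root of edgeR's F statistic, so it is approximate. The 95% intervals are 1.96 SE to either side. The comparisons were cold against 30 °C in each genotype, KO-labelled against control mice at each temperature, and their interaction. A level between genes is per kilobase of exon.

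The members and lists were chosen with earlier results of these data known, so no test was made over a list. Values by mouse are given for the called member with the largest rise and the largest fall of each role in cold controls. From each list outside the members, up to 2 genes of at least 1 CPM with the largest called rise and fall are named, and some genes that this rule picks are not reported here. Any other gene was chosen after its values were seen. Alternatives were DESeq2 1.42.0, library size alone, DESeq2 size factors, upper-quartile factors, no filter, at least 10 counts in every mouse, the revised quasi-likelihood fit, robust empirical Bayes, only the groups compared, leaving out each mouse, and, added after seeing the data, leaving out libraries over 1000 CPM of muscle markers. The steps were tested on simulated data. Promoter sequences are RefSeq entries of GRCm38.p6.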

Additional observations from a re-analysis of the deposited data

Results flagged for a closer look

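A mouse was singled out for a gene where its distance to the nearest mouse of its group was large against the group's whole range (Dixon's 95% criterion). Of 184 combinations of a gene and a group, 16 met it, and chance alone gives about 1 in 20. Control mouse 7 at 30 °C met it for Rpa1 at 51.6 CPM, Rpa3 at 6.24 CPM and Ung at 2.94 CPM, each time as the lowest of its group. The same mouse had the highest fibroblast, red blood cell, skeletal muscle, macrophage and neutrophil marker sums of its group, at 2855, 1120.0, 5212, 316 and 10.8 CPM, and the part of this in its values was not tested. Without it, Rpa1 changed after cold by -2.21 in controls.

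KO-labelled mouse 23 after cold had Mcm2 at 3.39 CPM and Mbd4 at 2.06 CPM, the highest of its group, and also the highest lymphocyte marker sum there, 25.2 CPM against 4.50 CPM in the next mouse. Without it the cold response in KO-labelled mice was -0.999 for Mcm2 and -1.51 for Mbd4, and the part of the lymphocytes was not tested. KO-labelled mouse 27 after cold had Rpa3 at 3.21 CPM, Msh3 at 18.1 CPM and Neil3 at 0 CPM. Neil3 was counted 0 times in this mouse. It also had the highest neutrophil and red blood cell marker sums of its group, at 66.4 and 1497 CPM.

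Each of the remaining mice met the criterion for 1 gene. Among mice at 30 °C these were Rfc3 at 2.10 CPM in KO-labelled mouse 10 at 30 °C, Lig1 at 3.41 CPM in KO-labelled mouse 13 at 30 °C and Ogg1 at 7.98 CPM in control mouse 4 at 30 °C. After cold they were Mlh3 at 13.9 CPM in control mouse 16, Pold1 at 1.76 CPM in control mouse 18, Nthl1 at 0.987 CPM in control mouse 19, Pms2 at 5.65 CPM in control mouse 21 and Xrcc1 at 10.8 CPM in KO-labelled mouse 28.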

How the results depend on the processing

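Of the 37 members called after cold in controls, 34 passed in the same direction under all 22 alternatives that tested them, and of the 38 in KO-labelled mice 35 did so under all 24. The exceptions were Smug1 and Polb in both genotypes, Prim2 in controls and Pcna in KO-labelled mice. The median log2 fold change of the members after cold in controls was -1.05 with library size alone, -1.03 with upper-quartile factors, -0.77 with at least 10 counts in every mouse, where only 38 members were tested, -0.97 with only the groups compared and -0.99 without the libraries over 1000 CPM of muscle markers, an alternative chosen after seeing the data. In KO-labelled mice it was -1.16 with library size alone, -0.995 with upper-quartile factors and -0.91 without the muscle libraries. It ran from -0.92 to -0.81 leaving out each mouse in turn. With library size alone, 4 members rose and 37 fell in KO-labelled mice, beside 3223 higher and 8384 lower over all genes. For the label the median of the members was 0.13 at 30 °C and 0.0351 after cold with library size alone, 0.14 after cold without the muscle libraries, and for the interaction -0.0881 and 0.18 in these settings. No member was called for the label or the interaction in any setting.

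Some members that were not called, or were called weakly, changed sign. Pcna in controls was at -0.0973 with library size alone, -0.0832 with upper-quartile factors, -0.0213 with at least 10 counts, -0.0221 with only the groups compared, -0.0283 without the muscle libraries and from -0.0165 to 0.0516 leaving out each mouse. Lig3 in controls was at 0.0163 without the muscle libraries. In KO-labelled mice, library size alone gave -0.27 for Mcm7, -0.0605 for Pcna, -0.30 for Rfc1 and -0.21 for Lig3, and upper-quartile factors gave -0.10, -0.14 and -0.0461 for Mcm7, Rfc1 and Lig3. Rfc1 passed the threshold in both of these settings. Calls gained by Mcm3, Mcm6, Rfc1, Pms1, Neil3 and Parp2 in some settings stand beside their values. With at least 10 counts Mcm7 was at -0.0106 and Rfc1 at -0.0401, and Rfc1 was at -0.0174 with only the groups compared and -0.0138 without the muscle libraries. Mcm6 was at 0.0101 by DESeq2, 0.00905 with DESeq2 size factors and 0.0605 without the muscle libraries. Leaving out each mouse, Mcm6 ran from -0.0750 to 0.0289, Mcm7 from -0.0195 to 0.0884 and Rfc1 from -0.0147 to 0.0396. Library size alone moved the median of all genes with them, and the cause was not tested.

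Over all genes, the label at 30 °C called 48 genes by DESeq2, 34 with library size alone, 9 without a filter and 7 to 93 leaving out each mouse, against 14 as reported. After cold it called 197, 5 and 15 in the same settings, 45 with at least 10 counts, 9 with only the groups compared, 5 without the muscle libraries and 7 to 100 leaving out each mouse, against 24. The interaction called 488 by DESeq2, 27 without a filter, 31 without the muscle libraries and 49 to 371 leaving out each mouse, against 200. The highest of these came without control mouse 7 at 30 °C (93 genes at 30 °C and 371 for the interaction) and, after cold, without KO-labelled mouse 22 (100 genes, and 302 for the interaction). No paired analysis was possible because the 4 groups share no replicate numbers. Precision is limited by counts for Exo1, Neil3 and Fen1, which had few counts in each mouse, and counting error is only part of the spread between mice.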

Other observations

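Further repair pathways were counted from lists outside the 46 genes. Of the nucleotide excision repair genes, which remove bulky damage, 10 rose and 5 fell of 20 tested in controls, with a median log2 fold change of 0.15, so that 50% rose and 25.0% fell, beside 31.6% and 33.4% of all tested genes. Ercc1, a subunit of an excision nuclease, went from 12.0 ± 1.55 CPM (SD, n = 7) at 30 °C to 69.0 ± 6.93 CPM (SD, n = 5) after cold, and its log2 fold change was 2.52 (SE 0.12). Gtf2h1, a subunit of the transcription and repair factor TFIIH, changed by 1.14 (SE 0.11). Ddb2, which finds ultraviolet damage, and Uvssa, which acts at stalled transcription, changed by -2.15 (SE 0.15) and -1.15 (SE 0.14). In KO-labelled mice 11 rose and 5 fell of 20 tested. Of the double-strand break repair genes, 5 rose (25.0%) and 7 fell (35.0%) of 20 tested in controls, the latter near the background. Rbbp8, which starts the trimming of broken ends, changed by 1.18 (SE 0.10), while Rad50, a part of the break-sensing complex, changed by -1.37 (SE 0.09).

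Of the genes that maintain mitochondrial DNA, 7 rose (43.8%) and 4 fell (25.0%) of 16 tested in controls, beside the same 31.6% and 33.4%, with a median log2 fold change of 0.09. Mterf3, a mitochondrial transcription regulator, and Polrmt, the mitochondrial RNA polymerase, changed by 1.04 (SE 0.07) and 0.98 (SE 0.09), while Polg2, the accessory subunit of the mitochondrial DNA polymerase, and Primpol, a primase, changed by -0.85 (SE 0.15) and -0.66 (SE 0.29). In the list of E2F, RB and cell cycle regulators, 7 rose (28.0%) and 12 fell (48.0%) of 25 tested in controls. Cdkn1a, which encodes the cell cycle inhibitor p21, rose from 8.28 ± 2.16 CPM (SD, n = 7) at 30 °C to 227 ± 24.8 CPM (SD, n = 5) after cold, by 4.78 (SE 0.26) on the log2 scale, and by 4.49 (SE 0.25) in KO-labelled mice. E2f7, a repressor of the E2F family, rose by 0.99 (SE 0.20). Ccne1, the cyclin of entry into replication, and Rbl1, a relative of RB, changed by -2.74 (SE 0.28) and -1.91 (SE 0.17). All of these named changes passed an adjusted p of 0.05 by edgeR in controls, and whether the lists differ from each other was not tested.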
